A study of Homo sapiens with 14 samples.

Results

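The 5 control libraries of the study describe what HEK293T cells transcribe when they have received only a control siRNA. They were chosen by their label, as every library of the AllStars negative control group, and they make up 5 of the 14 RNA-seq libraries in the series. The other 9 libraries came from cells given 1 of 2 forms of the microRNA miR-34a, 5 with the form labelled WT and 4 with the form labelled RS, and they were not analysed here. All control cells were transfected with the AllStars siRNA, a commercial duplex sold as having no known mammalian target, and were harvested 24 h later, so these are transfected cells, and untransfected cells were not analysed here. The labels do not say whether the 5 replicates were separate cultures, so the spread given below is between libraries and may be partly technical. HEK293T is a single human line, and fewer cells of a kind and less RNA per cell cannot be told apart in bulk RNA.

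HEK293T cells descend from a culture of human embryonic kidney that was transformed with adenovirus DNA, and they also carry the large T antigen of the virus SV40. They divide quickly, take up DNA and siRNA readily, and serve as a common host for cloned receptors, channels and viral vectors. The viral genes were not analysed here.

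Levels are given on 2 scales. CPM (counts scaled to 1000000 assigned reads) are a gene's share of the assigned reads of its library, after scaling of library totals, and serve to compare libraries and to decide whether a gene was detected. TPM (transcripts per 1000000) divide each count by the length of the gene's exons in GENCODE 29, scaled to a fixed sum, and serve to compare genes. All values after ± are SDs over the 5 libraries. A gene was counted as detected where it had at least 1 CPM in all 5 libraries and under the limit where it had under 0.1 CPM in all 5, which is 2 to 3 reads or fewer per library, and the rest lie between. A gene with no read in any of the 5 libraries could still have up to 0.0199 CPM, the level at which 3 reads would be counted in all 5 libraries together.

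The libraries held between 22242203 and 34883809 assigned reads, the smallest being replicate 5. A principal component analysis of the genes of at least 10 CPM put replicate 1 and replicate 5 at opposite ends of its first axis, which carried 56.7% of the variance. Replicate 5 also held more ribosomal RNA of the mitochondrion and more small RNAs than the others, with values given at the end. Pairs of libraries had Pearson correlations of log2 CPM between 0.988 and 0.998, across genes that are not independent of each other. The reads came from a kit that does not keep the strand. Where a gene overlaps another on the opposite strand, the reads of the overlap therefore cannot be told apart. Whether such reads were counted or left out is not given. A gene whose sequence recurs elsewhere may lose reads. For the genes in the lists below, the share of 50-base stretches of the longest transcript that also occur in a transcript of another gene was computed, and it was under 10% for 83.8% of the 3792 genes. Where it was above 50%, a low value is not read as absence.

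Of 63140 genes in the table, 13924 were detected, 37935 were under the limit and 11281 lay between. Protein-coding genes made up 12255 of the detected genes, which is 61.7% of the 19855 protein-coding genes, while 4732 were under the limit and 2845 had no read in any library. This 61.7% is the background against which the counts of each gene list can be read. Detected protein-coding genes had a median of 28.0 TPM, and their 10th and 90th percentiles were 3.44 and 139.8 TPM. Reads were spread over many genes. The 1250 highest genes held 50% of the CPM, 3532 held 75% and 6329 held 90%. The 100 highest genes held 15.6 ± 0.0961% of the reads. Of the assigned reads, 95.1 ± 0.158% fell in nuclear protein-coding genes and 1.29 ± 0.0671% in long non-coding RNA genes, of which 1047 of 14597 were detected.

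The highest levels per length belonged to genes of mitochondrial DNA. Its 13 proteins form parts of the respiratory chain and of ATP synthase, and together they took 2.74 ± 0.178% of the reads. MT-CO3, a subunit of cytochrome c oxidase, stood at 18068, 15411, 17707, 16901 and 15829 TPM in replicates 1 to 5. MT-CO2, another subunit of the same enzyme, reached 15954 ± 1541 TPM and MT-ATP6, a subunit of ATP synthase, 14388 ± 1589 TPM. The values of MT-CO3, MT-CO2 and MT-ATP6 overlapped between libraries, so their order is not settled. MT-ND4, a subunit of complex I, at 12917 ± 639.8 TPM lay above MT-CO1 at 11542 ± 511 TPM in every pairing of libraries. Parts of mitochondrial DNA are copied in the nuclear genome. The nuclear copy MTATP6P1 was itself listed at 2291 ± 128 TPM, and the share of MT-ATP6 stretches found in another gene was 46.7%. Reads of the copy and of the mitochondrial gene may be confused.

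Among nuclear genes the highest levels per length belonged to the cytoskeleton, translation and protein folding. ACTG1, cytoplasmic gamma-actin, came first with 4549, 5304, 5200.2, 5146 and 5412 TPM in replicates 1 to 5. All 5 of its values lay above every value of the next gene, EEF2, the elongation factor that moves the ribosome along the mRNA, at 3565 ± 282 TPM. EEF2 overlapped with RPS2, a protein of the small ribosomal subunit, at 3442 ± 219 TPM. ACTB, cytoplasmic beta-actin, was lower than ACTG1 in every library, at 2861 ± 112 TPM. The chaperone HSP90AB1 stood at 3128 ± 60.7 TPM and its stress-inducible partner HSP90AA1 at 2478 ± 172 TPM. Their order reversed with the longest transcript as the length, at 2541 against 2700.3 TPM, and with the median transcript length, at 864 against 5346 TPM. The levels depend on which exon length is used. With the longest transcript as the length, 14 of the 20 highest nuclear genes remained among the 20, and with the median transcript length, 9 remained. ACTG1 stayed above ACTB with the longest transcript, at 4952 against 3268 TPM, but not with the median transcript length, at 2213 against 3412 TPM.

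**Figure D1:**
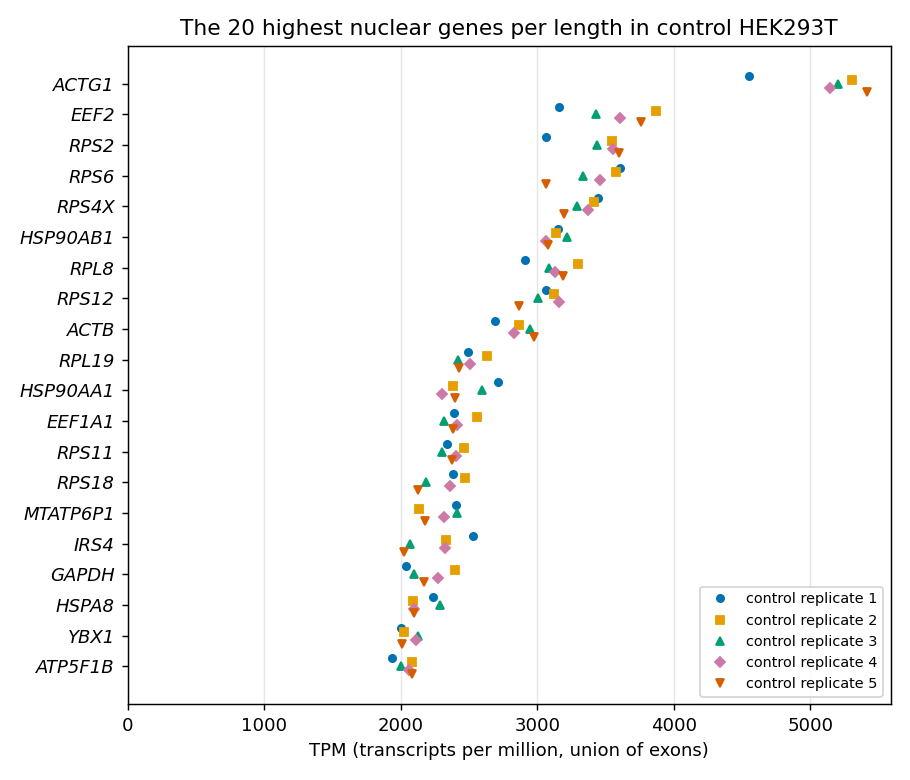
Level per length (TPM, horizontal axis) of the 20 nuclear genes with the highest mean, with 1 symbol per control replicate. ACTG1 sits apart at the top in all 5 libraries, above EEF2 and RPS2, which overlap. MTATP6P1, a nuclear copy of mitochondrial DNA, is among the 20, and its reads may be confused with those of the mitochondrial gene.

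IRS4 encodes an adaptor of the insulin receptor substrate family that few adult tissues express. Its gene (chromosome X, 108732482 to 108736409, minus strand) gave 2509, 2251, 2059.8, 2279 and 1991 CPM in replicates 1 to 5, or 2255 ± 208 TPM, which placed it at rank 16 of the nuclear genes per length. Replicates 1 and 5 had its highest and lowest values. GAPDH, the glycolytic enzyme often used as a reference, was at 2194 ± 144 TPM. With the longest transcript as the length IRS4 was at 1644 against 2542 TPM of GAPDH, and with the median transcript length at 546 against 1226 TPM. Over all genes its rank was then 56 and 258, beside 31 with the exon length used here. The nuclear rank counts MTATP6P1 at rank 15, whose reads may be confused with those of mitochondrial DNA. The annotation places the antisense gene IRS4-AS1 over IRS4, and the reads of the pair cannot be separated by strand.

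XIST, the RNA that coats and silences an X chromosome, was the highest long non-coding RNA by reads (chromosome X, 73820651 to 73852723, minus strand). Its values were 3268, 3227, 2239, 3183 and 2439 CPM in replicates 1 to 5. Replicates 3 and 5 were lower than the others, and its coefficient of variation (CV, the SD as a share of the mean) was 17.1%. Per length it stood at 454 ± 80.5 TPM. TSIX, a detected gene on the opposite strand, overlaps it. Most of the other high long non-coding RNAs host small nucleolar RNAs in their introns or are known as nuclear or cytoplasmic scaffolds. SNHG29, a host gene, had 262 ± 21.9 CPM and GAS5, another host gene, 245 ± 17.7 CPM. NORAD, which binds Pumilio proteins, had 247 ± 10.3 CPM, and TUG1 had 212 ± 15.2 CPM. SNHG1 was at 177 ± 5.16 CPM, FGD5-AS1 at 172 ± 6.06 CPM, SNHG3 at 128 ± 5.93 CPM and SNHG4 at 92.1 ± 7.17 CPM. NEAT1, the scaffold of nuclear paraspeckles, had 147, 130.5, 116, 132 and 192 CPM, with replicate 5 above the others. MALAT1, an abundant nuclear RNA in many cells, was looked at after its value was seen and had only 1.71 CPM. TALAM1, a transcript known from the opposite strand of MALAT1, is a gene of its own in the table and had 0 reads in all 5 libraries. Whether reads shared between them were discarded was not tested.

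The promoters of the highest genes were read from RefSeq windows on GRCh38.p14 that run from 250 bases before to 50 bases after each transcript start. Of the 12242 detected nuclear protein-coding genes, 10018 had a window, and of the 100 highest by TPM, 87 had one. The letters TATAAA on the gene's strand between 40 and 16 bases before the start were found in 8 of those 87 windows, or 9.20%. Among the detected genes outside the 500 highest, 116 of 9602 windows, or 1.21%, held them, and 2.54% of all 27305 windows did. The following 30-base windows are shown because they belong to the high genes that hold this motif, which is in capitals.
EEF2, chr19:3985479-3985508, minus strand: caaccggcgtccgccTATAAAaagctgagt
SLC25A5, chrX:119468399-119468428, plus strand: cagctccggctccccctaTATAAAtcggcc
H2AZ1, chr4:99950291-99950320, minus strand: ggaacattctgcagTATAAAgggagcaggg
RPLP0, chr12:120201127-120201156, minus strand: tggctactttgttcgcatTATAAAaggcac
TXN, chr9:110256523-110256552, minus strand: ccgggcgtgccagttTATAAAgggagagag
CALR, chr19:12938564-12938593, plus strand: tgagaggcgggtgggTATAAAagtgcaagg
HNRNPAB, chr5:178204488-178204517, plus strand: cacccggctccggcatTATAAAgggcgcca
ATF4, chr22:39520514-39520543, plus strand: ccccatagagacgaagtcTATAAAgggccg
EEF2 is the elongation factor named above and RPLP0 is a protein of the ribosomal stalk. SLC25A5 exchanges ADP for ATP across the inner mitochondrial membrane at 1905 ± 48 TPM, and H2AZ1 is a histone variant at 636 CPM. TXN is thioredoxin, CALR is the chaperone calreticulin, HNRNPAB is an RNA-binding protein and ATF4 is the transcription factor of the integrated stress response at 823 ± 43.5 TPM. A match of letters is a description and does not show that a factor binds there.

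A different feature was more common at the starts of the highest genes. Transcripts of the translation machinery are known to begin with a C followed by a run of pyrimidines, the terminal oligopyrimidine tract through which their translation is regulated. A C followed by 4 pyrimidines as the first 5 bases of the transcript, on the gene's strand, was found in 30 of the 87 windows of the 100 highest genes, or 34.5%. The share was 19.5% among the 500 highest, 4.85% among the detected genes outside them and 4.04% over all windows. Of the 30, 21 were genes of ribosomal proteins, which made up 32 of the 87. The windows below run from 15 bases before to 15 bases after the start, with the first 5 bases of the transcript in capitals, and were taken from the highest genes on both sides of that divide.
EEF2, chr19:3985449-3985478, minus strand: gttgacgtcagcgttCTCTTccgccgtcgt
RPS6, chr9:19380222-19380251, minus strand: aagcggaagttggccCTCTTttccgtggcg
RPS12, chr6:132814554-132814583, plus strand: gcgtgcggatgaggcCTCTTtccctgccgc
EEF1A1, chr6:73521018-73521047, minus strand: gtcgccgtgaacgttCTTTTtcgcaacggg
NPM1, chr5:171387834-171387863, plus strand: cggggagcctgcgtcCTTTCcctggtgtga
RPL7A, chr9:133348203-133348232, plus strand: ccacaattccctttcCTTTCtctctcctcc
TUBB, chr6:30720337-30720366, plus strand: ccctctcctttctccCTCTCagaaccttcc
RPS27, chr1:153990747-153990776, plus strand: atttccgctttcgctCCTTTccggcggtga
RPS6, RPS12 and RPS27 are proteins of the small ribosomal subunit and RPL7A is one of the large subunit. EEF1A1 brings aminoacyl-tRNA to the ribosome. NPM1 is a chaperone of the nucleolus and TUBB a beta-tubulin, so the feature was not limited to ribosomal proteins in these windows. CCAAT in either orientation was present before the start in 43.7% of the 87 windows and 35.5% of those of all detected genes, and GGGCGG in either orientation in 69% and 69.4%. Over all windows these shares were 33% and 42.3%. Genes under the limit and the ribosomal proteins as a class had a window for fewer than 80% of members, so no share is given for them.

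Translation and folding were represented by nearly complete sets. Of 86 genes of cytosolic ribosomal proteins, 84 were detected, and together they summed to 76089 ± 2116 TPM. The exceptions were RPL3L, the muscle form of RPL3, at 0.81 CPM and RPL10L, the testis form of RPL10, under the limit. RPS6 was at 3407 ± 221 TPM, RPS4X at 3344 ± 99.9 TPM, RPL8 at 3122 ± 142 TPM and RPS12 at 3045 ± 115 TPM. Reads of ribosomal proteins can be shared with their many processed copies, and for RPS2 the share of recurring stretches was 63.2%. Mitochondrial ribosomal proteins were detected for 76 of 77 genes, with MRPL37 at 449 ± 23.7 TPM. The exception, MRPL53, had no read, and 50.2% of its stretches recur in another gene. All 20 cytosolic aminoacyl-tRNA synthetases were detected, as were all 31 proteasome subunits, all 30 nuclear pore proteins and all 12 subunits of RNA polymerase II. All 8 subunits of CCT, the ring that folds actin and tubulin, were detected. CCT3 was highest at 1017 ± 18.9 TPM and CCT5 lowest at 350.0 ± 20.3 TPM, with CCT7, CCT4, CCT6A, CCT8, TCP1 and CCT2 between. Among core proteins of the spliceosome 19 of 20 were detected, led by SNRPB at 1049.5 ± 43.2 TPM. The exception was SNRPN, with no read in any library. It shares 44.2% of its stretches with other genes, which include SNURF on the same transcript.

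All 15 genes of the S phase list were detected and summed to 4409.7, 4466, 4496, 4464 and 4485 CPM in replicates 1 to 5. PCNA, the sliding clamp of DNA polymerase, was at 955 ± 16.2 TPM. The helicase subunits MCM7 and MCM3 stood at 600.1 ± 25.4 TPM and 531 ± 14.2 TPM. All 15 mitosis genes were detected and summed to 3948, 3794, 3805, 3719 and 3598 CPM, highest in replicate 1 and lowest in replicate 5. CDC20, the activator of the anaphase-promoting complex, was at 407 ± 12.2 TPM and TOP2A, topoisomerase II, at 388 ± 19.9 TPM. Of the 8 telomerase genes 7 were detected. TERT, the catalytic protein that most adult cells lack, was at 9.33 ± 1.12 TPM, far below its partners DKC1 at 308 ± 13.3 TPM and NHP2 at 277 ± 11.1 TPM. TERC, the RNA of the enzyme, had 0.0515 CPM, but it carries no poly(A) tail and 79.1% of its stretches recur elsewhere, so its level was not measured here.

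Within families of closely related proteins the members differed widely in level. Among beta-tubulins TUBB came first at 1873 ± 67 TPM and TUBB4B next at 869 ± 43.6 TPM, with no overlap between libraries. TUBB2B at 82.7 ± 2.75 TPM, TUBB6 at 69.2 ± 4.52 TPM, TUBB2A at 55.4 ± 4.5 TPM and TUBB4A at 27.4 ± 2.89 TPM were far lower. The neuronal TUBB3 had 0.648 CPM, but 79.6% of its stretches occur in other annotated genes, so this low value is not read as absence. Among alpha-tubulins TUBA1B stood at 412 ± 18.4 TPM, above TUBA1A at 94.2 ± 6.71 TPM and TUBA1C at 91.5 ± 4.9 TPM, which overlapped with each other. These genes share between 25.1% and 41.1% of their stretches with other genes. TMSB10, a thymosin that binds monomeric actin, had 1304 ± 52.8 TPM, against 46.6 ± 3.84 TPM for TMSB15A and 26.6 ± 1.72 TPM for TMSB4X. TMSB4X is the major thymosin of many adult cells. Of the lamins, which line the nucleus, the B type was high, with LMNB1 at 332 ± 16.1 TPM and LMNB2 at 328 ± 22.3 TPM, and these overlapped. LMNA, which encodes lamins A and C, stood at 30.6, 37.8, 35.3, 34.8 and 38.9 TPM in replicates 1 to 5, all below every value of LMNB1 and LMNB2.

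The name of the line raises the question of how much kidney identity it keeps. Of 19 markers of the kidney progenitor 13 were detected, or 68.4%. Of 20 markers of the mature kidney tubule 2 were detected, of 10 markers of the podocyte 4, and of 12 markers of the adrenal cortex none, with 8 of those 12 under the limit. Beside the 61.7% over all protein-coding genes, the share was near the background for the progenitor list and below it for the other three. Among the progenitor genes were transcription factors of the nephron and its blastema. HOXA11 had 50.8, 58.1, 57.6, 62.8 and 66.5 TPM in replicates 1 to 5, lowest in replicate 1 and highest in replicate 5. SIX2, which keeps nephron progenitors from differentiating, had 51, 54.9, 60.4, 58.5 and 66.1 TPM, again lowest in replicate 1 and highest in replicate 5. HOXD11 was at 33 ± 1.79 TPM and SALL1 at 32.7 ± 1.86 TPM. WT1 had 7.17 ± 0.718 TPM, EYA1 6.69 ± 0.924 TPM and GATA3 9.29 ± 0.953 TPM. PAX2, active in the earliest nephric cells, was barely detected at 1.28 ± 0.20 TPM, and its relative PAX8 had no read in any library.

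The 2 detected tubule genes were LRP2, the endocytic receptor megalin, at 9.69 ± 0.827 TPM and AQP3, a water channel, at 3.92 ± 0.0896 TPM. Those under the limit included UMOD, the tubule protein uromodulin, SLC12A1 and SLC12A3, the salt transporters of the loop and the distal tubule, AQP2, the vasopressin-controlled water channel, SLC34A1, the phosphate transporter, and CDH16. Of the podocyte genes CD2AP stood at 66.4 ± 2.16 TPM and PODXL at 33.7 ± 1.58 TPM. From the adrenal cortex, CYP17A1, CYP11A1, CYP11B1, CYP11B2 and MC2R were under the limit, as was CYP21A2, of which 44.3% of stretches recur elsewhere. NR5A1, the master factor of steroid-forming cells, averaged 0.174 CPM.

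Neuronal genes were mixed. Of 25 markers of neurons 13 were detected and 4 were under the limit. UCHL1, a ubiquitin hydrolase abundant in neurons, stood at 408, 432, 439, 436 and 438 TPM in replicates 1 to 5 and was the highest of the list. The neurofilament genes NEFM, INA and NEFL followed at 98.8 ± 7.92 TPM, 77.9 ± 2.5 TPM and 51.4 ± 3.31 TPM. ENO2, the neuronal enolase, was at 31.8 ± 3.36 TPM, ELAVL2, an RNA-binding protein, at 21.2 ± 1.24 TPM, GAD1, which makes the transmitter GABA, at 8.34 ± 0.529 TPM and NCAM1 at 7.43 ± 0.474 TPM. SNAP25, of the synaptic vesicle fusion complex, averaged 0.114 CPM and DCX, a marker of young neurons, 0.0357 CPM. ELAVL3, ELAVL4 and the glutamate transporter SLC17A6 were under the limit. Of 20 chromaffin markers, the adrenal medulla's own, 7 were detected. GATA2 stood at 35.9 ± 1.95 TPM and ISL1 at 24.5 ± 1.22 TPM, but the enzymes TH and DBH of catecholamine synthesis and the factor PHOX2A were under the limit. A list's name is that of the cell type its genes mark elsewhere and does not name a cell type in this line.

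**Figure D2:**
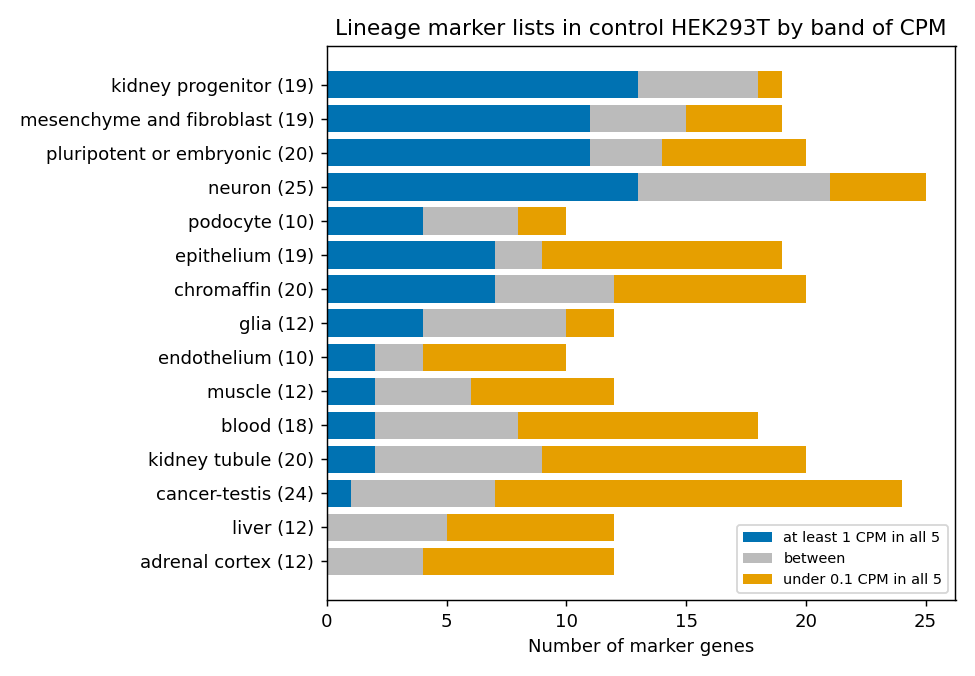
Number of marker genes (horizontal axis) of each lineage list in each band of CPM over the 5 control libraries, with the size of the list in brackets. The kidney progenitor list has the largest share detected, and the liver and adrenal cortex lists have none.

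Some markers of epithelium and some of mesenchyme were detected. Of 19 epithelial markers 7 were detected and 10 were under the limit. Of 19 mesenchymal markers 11 were detected and 4 were under the limit. Beside the 61.7% over all protein-coding genes, the share was near the background for the mesenchymal list and below it for the epithelial list. VIM, the intermediate filament of mesenchymal cells, had 149, 157, 158, 153 and 158 TPM in replicates 1 to 5. CDH2, N-cadherin, had 89, 87, 84.5, 82 and 78.8 TPM, and CDH1, the epithelial E-cadherin, 5.53, 5.94, 5.52, 6.11 and 5.0 TPM. Each of the 5 CDH2 values lay above every CDH1 value. DSG2, a cadherin of desmosomes, stood at 255 ± 15.5 TPM, DSC3 of the same junctions at 69.3 ± 4.41 TPM and DSP, the desmosomal plaque protein desmoplakin, at 113 ± 6.1 TPM. KRT18 stood at 48.2 ± 2.05 TPM and KRT8, its partner in simple epithelia, at 5.6 ± 0.739 TPM. The 2 genes overlap on opposite strands and their reads cannot be told apart there. Of 55 keratins 5 were detected, and KRT5, KRT14, KRT7, KRT19 and KRT20 were under the limit, as were the epithelial regulators GRHL2, OVOL1 and ESRP1. ESRP2, the second epithelial splicing regulator, was at 21.5 ± 2.31 TPM. On the mesenchymal side TWIST1 was at 20.3 ± 1.07 TPM and FN1, fibronectin, at 19.1 ± 1.75 TPM. COL1A1 had 11.2 ± 1.53 TPM but COL1A2, the other chain of type I collagen, was under the limit, as were DCN, THY1 and FAP.

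Markers of other lineages were detected in small numbers. No liver marker of 12 was detected, and HNF4A, AFP, APOB, TTR, SERPINA1 and FGB were under the limit. Of 18 blood markers 2 were detected, led by CORO1A at 4.8 ± 0.709 TPM. PTPRC, CD3E, MS4A1, LAPTM5, TYROBP and LYZ were under the limit. Of 10 endothelial markers 2 were detected, led by EGFL7 at 23.2 ± 1.85 TPM, and PECAM1, CDH5, VWF, TEK, TIE1 and ERG were under the limit. Of 12 muscle markers 2 were detected, MYH3 at 4.68 ± 0.58 TPM and TTN at 0.925 ± 0.109 TPM, and of 12 glial markers 4, led by the glutamate transporter SLC1A3 at 37.1 ± 3.22 TPM.

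Of 20 genes of the embryo and of pluripotent cells 11 were detected and 6 were under the limit. HMGA1, a chromatin protein of embryonic cells, had 591 ± 40.4 TPM, and IGF2BP1, an RNA-binding protein of the embryo, 248 ± 7.62 TPM. LIN28B, which blocks maturation of the let-7 microRNAs, had 118, 109, 110.1, 105 and 100.04 TPM in replicates 1 to 5, highest in replicate 1 and lowest in replicate 5. Its relative LIN28A averaged 0.0527 CPM. IGF2BP2 stood at 60 ± 2.91 TPM, DNMT3B at 57.3 ± 2.45 TPM, HMGA2 at 32.5 ± 0.956 TPM and SOX2 at 14.9 ± 1.26 TPM. NANOG, PRDM14, DPPA4, ZFP42 and L1TD1 were under the limit. POU5F1 averaged 0.689 CPM, shares 31.6% of its stretches with other genes and overlaps TCF19. Of 24 cancer-testis genes PRAME was the only 1 detected, at 46.8 ± 1.65 TPM, and 17 were under the limit. Several of these, such as MAGEA2 and XAGE1A, are near-identical copies, so their absence from the counts is not read as silence.

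HOX genes set position along the body axis. Of 39 genes in 4 clusters, 35 were detected, being 11 of 11 in HOXA, 9 of 10 in HOXB, 8 of 9 in HOXC and 7 of 9 in HOXD. HOXB9 was the highest of them at 405, 455, 447, 445 and 436 TPM in replicates 1 to 5. HOXD13 came next at 243, 246, 259, 243 and 246 TPM and then HOXA5 at 178, 171, 200.2, 197 and 189 TPM. These orders held in every pairing of libraries, and HOXA9 at 117 ± 5.31 TPM and HOXD10 at 95.3 ± 5.4 TPM followed. The orders depend on the exon length used. With the longest transcript as the length, HOXB9, HOXD13 and HOXA5 stayed the highest of their clusters. With the median transcript length HOXB9 did, but HOXD10 was the highest of HOXD and HOXA9 the highest of HOXA. HOXB9 (chromosome 17, 48621159 to 48626356, minus strand) exceeded its direct neighbour HOXB8, at 80.8 ± 4.26 TPM, in all libraries. The most posterior paralogs were all detected, with HOXA13 at 42.2 ± 3.3 TPM, HOXB13 at 30.1 ± 2.12 TPM and HOXC13 at 28 ± 1.08 TPM. The genes not detected were HOXB1, with no read in any library, HOXC5 at 0.246 CPM, HOXD12 at 0.67 CPM and HOXD1 at 0.199 CPM. HOXC5, HOXD3 and HOXD4 share 58.9%, 91.9% and 76.5% of their stretches with other annotated genes, so their counts may be too low. Antisense transcripts overlap many HOX genes. HOXA10-AS lies across HOXA9 and HOXA10, for example.

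**Figure D3:**
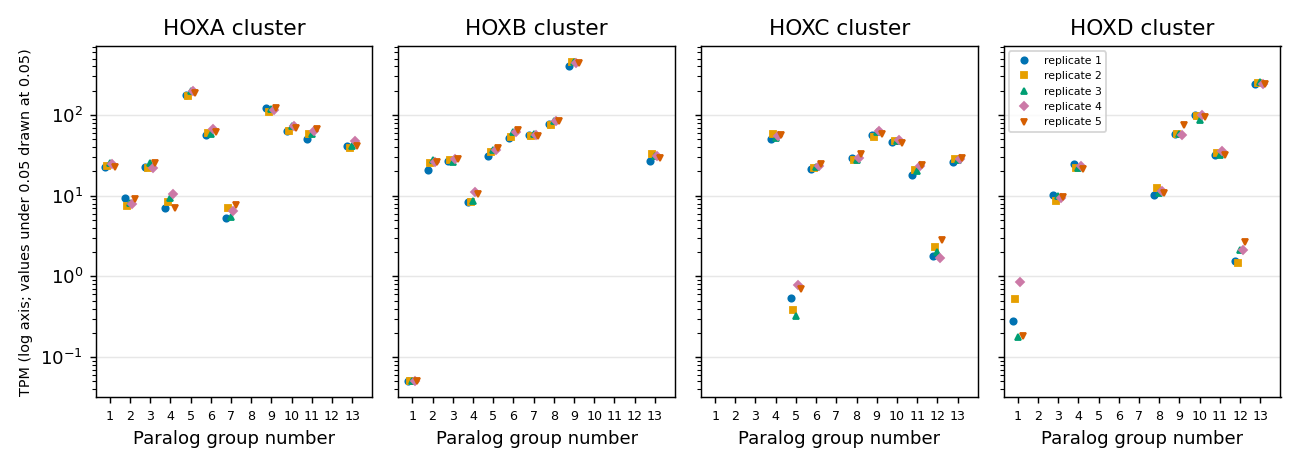
Level per length (TPM, log axis, values under 0.05 drawn at 0.05) of each HOX gene by paralog group number, 1 panel per cluster and 1 symbol per control replicate. HOXB9 and HOXD13 are the peaks of their clusters at the exon length drawn, and HOXB1 lies at the floor. With the median transcript length HOXD10 was the highest of HOXD.

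Other families of developmental transcription factors were detected in part. Of 45 forkhead genes 28 were detected, FOXC1 leading at 244 ± 14.9 TPM, followed by the cell cycle factor FOXM1 at 147 ± 6.39 TPM and FOXF2 at 73.4 ± 4.1 TPM. FOXA2, the endoderm factor, was under the limit. Of 19 SOX genes 12 were detected, with SOX4 at 102 ± 1.82 TPM, SOX12 at 80.7 ± 6.89 TPM and SOX9 at 14.3 ± 0.793 TPM, and SOX1, SOX14 and SOX17 were under the limit. Of 6 GATA genes 5 were detected. GATA4 at 27.8 ± 1.76 TPM and GATA6 at 23.2 ± 2.3 TPM, known from heart and endoderm, stood below GATA2, and GATA1 of red cells averaged 0.115 CPM. Of 9 PAX genes 4 were detected, PAX3 at 7.94 ± 0.342 TPM and PAX6 at 4.65 ± 0.255 TPM among them. Of 14 NKX genes 9 were detected. NKX2-5, a factor of the heart, had 56.3, 66.5, 78, 79.6 and 88.5 TPM in replicates 1 to 5, lowest in replicate 1 and highest in replicate 5. POU4F1, a factor of sensory neurons, led the POU genes at 76.5 ± 2.42 TPM, where 6 of 15 were detected, and DLX2 led the DLX genes at 103 ± 11.4 TPM, where 5 of 6 were detected. TBX1 and TBX3 stood at 53.3 ± 3.92 TPM and 52.6 ± 1.41 TPM in a family of 17 with 9 detected. EYA1 and SIX2 belong to 10 genes that act as partners in organ formation, of which 8 were detected. Of 48 nuclear receptors 35 were detected, led by the orphans NR2F1 at 85.1 ± 5.81 TPM and NR2F2 at 79.9 ± 6.79 TPM, which overlapped. The estrogen receptor ESR1 averaged 0.371 CPM and the progesterone receptor PGR was under the limit.

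Receptors of the G protein-coupled superfamily differed by class. All 11 frizzled and smoothened genes were detected, SMO, the transducer of hedgehog signals, leading at 83 ± 5.96 TPM and the WNT receptor FZD2 at 36.7 ± 3.04 TPM following. Over the other receptor lists together, that is receptors of amines, nucleotides, lipids, proteases, peptides and chemokines, 32 of 122 genes were detected, or 26.2%, beside 61.7% of all protein-coding genes. None of 5 muscarinic, 5 dopamine or 4 histamine receptors was detected. CHRM3, often tested as an endogenous receptor of this line, averaged 0.214 CPM and CHRM1 and CHRM2 were under the limit. Of 9 adrenergic receptors 2 were detected, led by ADRA2C at 18.9 ± 1.36 TPM. Opioid receptors were represented by OPRD1 at 0.869 ± 0.149 TPM, and OPRM1 and OPRK1 were under the limit.

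Receptors for proteases, lysolipids and nucleotides included higher members. F2R, the thrombin receptor, stood at 39.3 ± 2.05 TPM and F2RL1, the trypsin receptor, at 27.3 ± 1.15 TPM. LPAR3 at 29 ± 1.7 TPM led 7 detected of 11 receptors for lysophosphatidic acid and sphingosine phosphate. ADORA2B, an adenosine receptor, was at 28 ± 1.31 TPM and P2RY1, an ADP receptor, at 17.9 ± 0.816 TPM. P2RY11 was at 19.2 ± 1.8 TPM, but 60.6% of its stretches occur in another gene. CXCR4 was the only detected chemokine receptor of 20, at 20.6, 23.3, 18.4, 27.1 and 22.6 TPM in replicates 1 to 5, and CCR7, CXCR2 and CXCR3 were under the limit. Among 28 receptors of peptides 10 were detected, none above the 5.6 TPM of the endothelin receptor EDNRA, and GLP1R, GCGR and MC4R were under the limit. With the longest transcript as the length, and with the median transcript length, VIPR1 was the highest of these receptors.

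The proteins that act below these receptors were detected for 29 of 41 genes, a share not far above the 61.7% of all protein-coding genes. Of 15 G alpha genes 11 were detected. GNAS, which stimulates adenylyl cyclase, stood at 307 ± 15 TPM, above GNA13 at 94 ± 2.78 TPM in every pairing of libraries, with GNA11 at 56.6 ± 4.42 TPM, GNAI2 at 49.4 ± 2.9 TPM, GNA12 at 45.2 ± 2.64 TPM and GNAQ at 36.5 ± 2.51 TPM after them. GNA15, the promiscuous alpha subunit of blood cells, was under the limit. All 5 G beta genes were detected, with GNB1 at 222 ± 5.37 TPM and GNB2 at 209.7 ± 25.4 TPM. ARRB2 at 96.5, 104, 101, 107 and 106 TPM in replicates 1 to 5 lay far above ARRB1 at 11.1, 11.9, 11, 12.1 and 11.9 TPM, with no overlap. The receptor kinases GRK6, GRK2 and GRK3 stood at 120.2 ± 11.7 TPM, 74.6 ± 6.97 TPM and 18.1 ± 1.2 TPM. Of 10 adenylyl cyclases ADCY3 at 43.9 ± 3.79 TPM, ADCY6 at 31.7 ± 2.08 TPM, ADCY9 at 21 ± 1.49 TPM and ADCY1 at 17.2 ± 1.17 TPM had the highest levels, and ADCY2, ADCY4 and ADCY8 were under the limit.

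Channels opened by voltage or by transmitters were detected in part. Of 9 voltage-gated sodium channels 4 were detected, and SCN1A and SCN10A were under the limit. Of 10 calcium channel pores CACNA1H, a T-type channel, was highest at 20.9 ± 1.83 TPM, and CACNA1E and CACNA1F were under the limit. Of 78 potassium channel genes 24 were detected and 26 were under the limit. KCNJ8 at 22.8 ± 1.42 TPM and KCNJ11 at 20.4 ± 1.56 TPM, the pores of ATP-sensitive channels, were the highest of them. Of 19 subunits of the GABA-A receptor 2 were detected and 13 were under the limit. Of 16 glutamate-gated channels 6 were detected, led by GRIN2D at 5.43 ± 0.773 TPM.

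Of the 11 genes of store-operated calcium entry and release, 10 were detected. STIM1, the sensor in the endoplasmic reticulum, was at 32.3 ± 3.03 TPM and ORAI1, the pore in the plasma membrane, at 31.9 ± 3.54 TPM. Of the receptors of inositol trisphosphate ITPR3 was at 23.6 ± 2.75 TPM, ITPR2 at 14.8 ± 1.35 TPM and ITPR1 at 3.49 ± 0.268 TPM. Of 15 mechanosensitive, acid-sensing and volume-regulated channel genes 11 were detected. PACC1, the acid-activated chloride channel, stood at 52.4 ± 3.1 TPM, LRRC8A, the core of the volume-regulated anion channel, at 47.8 ± 3.72 TPM, ASIC1 at 47.3 ± 3.0 TPM and PIEZO1, opened by membrane stretch, at 41.2 ± 3.71 TPM. PIEZO2, its relative in touch neurons, averaged 0.769 CPM. TRPM7 at 28.8 ± 2.01 TPM and TRPC1 at 26.7 ± 1.62 TPM were among 10 detected TRP genes of 25, and TRPV5, TRPV6 and TRPM8 were under the limit.

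Genes of the cell surface and matrix followed family by family. LAMC1, the gamma chain shared by most laminins, had 139 ± 7.78 TPM, LAMB2 63.3 ± 6.96 TPM and LAMA5 25.6 ± 3.38 TPM, with 9 of 12 laminins detected. Of 44 collagens 25 were detected. COL6A1 led at 91.5 ± 7.98 TPM, and COL2A1, the collagen of cartilage, had 54.2, 68.8, 61.6, 67.6 and 72.6 TPM in replicates 1 to 5, lowest in replicate 1 and highest in replicate 5. Of 27 integrin subunits 17 were detected, led by ITGB1 at 52.7 ± 5.46 TPM and ITGAV at 32.4 ± 1.07 TPM. GJA1, connexin 43, had 124 ± 4.96 TPM and GJC1, connexin 45, 49.9 ± 1.12 TPM, and 4 of 21 connexins were detected in all. Of 24 claudins, the proteins of tight junctions, 3 were detected, namely CLDN15 at 50.4 ± 4.4 TPM, CLDN12 at 38.4 ± 0.818 TPM and CLDN1 at 1.73 ± 0.364 TPM. Ephrins and their receptors were almost all present, 20 of 22, with EPHB4 at 62.1 ± 5.29 TPM. Of 66 protocadherins 10 were detected, but members of the clustered groups share exons and many of their stretches recur in other members. Among secreted signals WNT5A stood at 37.6 ± 0.857 TPM in a family of 19 with 9 detected, BMP7 at 42.8 ± 2.49 TPM in a family of 21 with 10 detected and FGF2 at 15.4 ± 0.803 TPM in a family of 22 with 5 detected. GAL, the neuropeptide galanin, was at 148, 159.9, 176, 189 and 161 TPM in replicates 1 to 5 and was the highest of 17 peptide hormone genes, of which 2 were detected and 11 were under the limit.

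Of 10 Toll-like receptors TLR6 was the only 1 detected, at 0.926 ± 0.142 TPM, and TLR2, TLR4, TLR7, TLR8 and TLR9 were under the limit. TLR3, the receptor of double-stranded RNA in endosomes, averaged 0.148 CPM. Of 9 adaptor and kinase genes 8 were detected, with IRAK1 at 430.2 ± 18 TPM, TRAF6 at 23.9 ± 1.25 TPM and MYD88 at 7.66 ± 0.438 TPM. TICAM2 was under the limit, but 87.3% of its stretches are shared with other genes.

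Of 14 genes of cytosolic nucleic acid sensing 8 were detected. ADAR, which edits double-stranded RNA, was at 196 ± 6.15 TPM, MAVS, the adaptor on mitochondria, at 56.5 ± 2.02 TPM, IRF3 at 51.7 ± 4.06 TPM, the RNA-activated kinase EIF2AK2 at 43.5 ± 3.74 TPM and TBK1 at 42.3 ± 2.79 TPM. IFIH1, known as MDA5, had 1.5 ± 0.133 TPM and RIGI averaged 0.366 CPM. CGAS, the sensor of cytosolic DNA, had 0.104, 0.143, 0.0882, 0.195 and 0.179 CPM in replicates 1 to 5, below 1 CPM throughout, and its adaptor STING1 had 1.37 ± 0.228 TPM. AIM2, ZBP1 and IFI16 were under the limit. Of 13 inflammasome genes GSDME was the only 1 detected, at 3.55 ± 0.344 TPM, and CASP1, CASP4, CASP5, NLRP3, PYCARD and IL1B were under the limit. Of 16 cytokine and interferon genes 14 were under the limit, including IFNB1, IL6, TNF, CXCL10 and CCL5, and LIF at 4.11 ± 0.70 TPM was the only 1 detected. These cells had received a siRNA duplex 24 h before, and how these genes stand in untransfected cells was not tested.

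Of 16 genes of class I antigen presentation 12 were detected. HLA-C stood at 387 ± 24.1 TPM, HLA-B at 122 ± 14.2 TPM and B2M, the shared light chain, at 84.4 ± 2.94 TPM. PSMB8 and PSMB9, the inducible proteasome subunits, averaged 0.0796 and 0.269 CPM. HLA genes differ between people and cell lines, so reads that differ from the reference may be lost. Of 41 factors through which viruses enter cells 30 were detected. BSG stood at 573 ± 36.9 TPM, SLC1A5 at 237 ± 17.8 TPM, TFRC, the transferrin receptor, at 147 ± 8.08 TPM and SLC20A1 at 143 ± 3.4 TPM. TMPRSS2, a protease that activates viral envelope proteins, was not detected and averaged 0.0713 CPM. CD209, CLEC4M and HAVCR1 were under the limit.

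Of 26 glycolytic isoenzymes 19 were detected. ENO1 was at 1890.1 ± 135 TPM, TPI1 at 1336 ± 82.8 TPM, PKM at 818 ± 42.2 TPM, LDHA at 770.0 ± 55 TPM and PGK1 at 465 ± 32.7 TPM, while PKLR, HK3, PGK2 and PGAM2 were under the limit. GAPDH lay above ENO1 in every pairing of libraries, but with the longest transcript as length ENO1 was the higher, at 2852 against 2542 TPM. LDHB was at 107 ± 17.4 TPM, but 58.5% of its stretches recur in other genes. Of 13 glucose transporters SLC2A1 was highest at 61.9 ± 6.95 TPM, and SLC2A2 and SLC2A9 were under the limit. All 15 genes of cholesterol synthesis were detected and summed to 1964, 1987, 1978, 2023 and 2014 CPM in replicates 1 to 5. INSIG1, a regulator of the pathway, was at 239 ± 10.6 TPM. CYP51A1, an enzyme of the same pathway, had only 6.37 ± 1.24 TPM, and 88.9% of its stretches occur in another annotated gene. Cytochromes P450 oxidise drugs, steroids and fatty acids. Of 55 cytochromes P450 16 were detected, and CYP1A2, CYP2B6, CYP2C19 and CYP2A6 were under the limit, while CYP3A4 averaged 0.111 CPM. CYP20A1 at 34.4 ± 1.98 TPM was the highest. Of 337 solute carriers 206 were detected, led by the ADP/ATP carriers SLC25A5 and SLC25A6, the latter at 936 ± 71.7 TPM.

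Several large families had no detected member. None of 381 olfactory receptors, 39 beta-defensins, 94 keratin-associated proteins and 19 late cornified envelope genes was detected. Of 38 interleukins 2 were detected, IL12A at 4.77 ± 0.418 TPM and IL17D at 2.25 ± 0.285 TPM, and 26 were under the limit. Of 13 globins HBQ1 was the only 1 detected, at 27.9 ± 4.05 TPM, with 11 under the limit. Of 27 taste receptors TAS2R4 was the only 1 detected, at 3.43 ± 0.942 TPM. Of 19 UDP-glucuronosyltransferases UGT3A2 alone was detected, though the UGT1A genes share exons with each other and their counts are not informative.

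Between the 5 libraries most genes moved little. For the 9923 genes of at least 10 CPM the median CV was 5.40%, where counting error alone would give 2.56%. In 99.3% of them the highest library was within 1.5 times the lowest. The common biological coefficient of variation, edgeR's estimate of the spread beyond counting error, was 0.0593, or 5.93%. It was 4.91% without replicate 1 and 5.29% without replicate 5, the libraries at the ends of the first principal component. The spread fell from a median CV of 15.4% for genes of 1 to 3 CPM, where counting error accounts for 14.5%, to 4.65% for genes of 300 to 1000 CPM, where counting error is 0.897%. Above 1000 CPM it was 5.43%, with a counting error of 0.478%. Of the 200 genes with the largest CV, 103 were highest in replicate 5 and 109 lowest in replicate 1. The same shares over all 9923 genes were not computed, so these counts do not set the 200 genes apart from the rest.

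**Figure D4:**
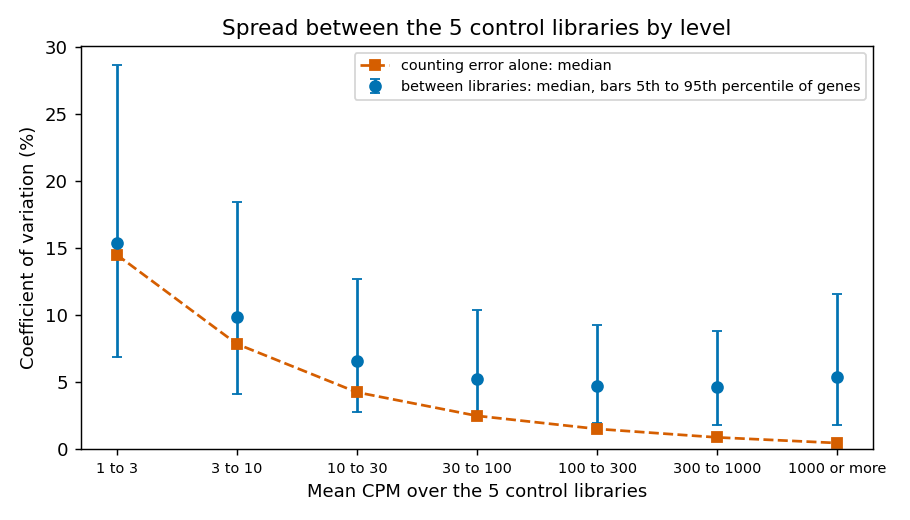
Coefficient of variation between the 5 control libraries (vertical axis, percent) by mean CPM, as the median with the 5th to 95th percentile of genes, and the median expected from counting error alone. The gap between the medians widens from low to high CPM.

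The steadiest genes were chosen for their small CVs, which are given as a description. Those named here had CVs below what counting error of their own reads would give on average. GTF2H3, a subunit of the transcription and repair factor TFIIH, had 83.2, 83.4, 83.3, 83.6 and 82.7 CPM in replicates 1 to 5, with a CV of 0.388% against 2.02% from counting. ZSWIM6 had a CV of 0.53%, TGIF2 0.57%, VPS52 0.572%, NOP9 0.631% and HINT3 0.643%. RPA1, of the complex that binds single-stranded DNA, combined a CV of 0.694% with 373 CPM.

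Among genes with a mean of at least 10 CPM, the 5 largest CVs belonged to RMRP, RN7SL1, H1-2 and both ribosomal RNAs of the mitochondrion. RMRP, RN7SL1 and H1-2 reached that mean only through replicate 5, so their place among the largest CVs is a description. RMRP, the RNA of a ribonuclease of nucleoli and mitochondria (chromosome 9, 35657754 to 35658017, minus strand), had 0.418, 0.486, 0.176, 1.14 and 118 CPM in replicates 1 to 5. RN7SL1, the RNA of the signal recognition particle, had 8.84, 6.26, 5.41, 4.83 and 79.8 CPM. Neither is known to carry a poly(A) tail, and in both replicate 5 stood far above the others. All stretches of either recur in another annotated gene, so only part of their reads may be counted. SNORD3A, the U3 nucleolar RNA, and RNU4-2, the U4 RNA of the spliceosome, were looked at after this pattern was seen. SNORD3A had 0.209, 0.20, 0.323, 0.195 and 33.9 CPM and RNU4-2 0, 0, 0.0588, 0.0324 and 14.8 CPM. The ribosomal RNAs of the mitochondrion were also highest in replicate 5. MT-RNR1 had 397, 383, 342, 478 and 1443 CPM and MT-RNR2 1700.3, 1757, 1489, 1734 and 3397 CPM, and their share of the reads was 0.487% in replicate 5 and at most 0.222% in the others.

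The replication-dependent histones, whose mRNAs mostly end in a stem-loop instead of a poly(A) tail, were also higher in replicate 5. Their 64 genes summed to 74.7, 76.2, 74, 76.8 and 179 CPM in replicates 1 to 5. Of the 64, 39 were highest in replicate 5, but many had few or no reads, and the share over all genes was not computed. Of the 18 with a mean of at least 1 CPM, 17 were highest in replicate 5. The exception was H3C6, with 4.28, 3.86, 3.88, 3.7 and 3.98 CPM. H1-4, H2AC11, H2AC12, H2AC20, H2BC17, H4C8 and H4C16 reached that mean only through replicate 5. For these genes the filter fixed in advance that replicate 5 was highest. The share over all genes was not computed for this count either, so it is a description. H1-4 had 0.313, 0.143, 0.323, 0.357 and 13.1 CPM and H1-2 8.7, 9.66, 8.7, 9.18 and 19.1 CPM. Of the 9 histone variants with polyadenylated mRNAs, 1 was highest in replicate 5. They summed to 2037, 2012, 2128, 2090.0 and 2099 CPM, and H2AZ1 had 624, 614, 658, 645 and 639.8 CPM. The RNAs not known to carry a tail summed to 10.5, 7.66, 6.7, 6.71 and 262 CPM over 13 genes. This list was drawn up after the pattern was seen and holds RMRP, RN7SL1, SNORD3A and RNU4-2, so its sum is not further support. RN7SL2, RN7SK, RNU12 and RPPH1, also in the list, had no read in any library. Whether a difference in poly(A) selection, RNA quality or another step of library making accounts for these values was not tested. Leaving out replicate 5 changed the number of detected genes from 13924 to 13981. Detection asks for 1 CPM in every library kept, so leaving out any library tends to raise this number. The lowest and highest were 13956 without replicate 4 and 14020 without replicate 3, so the change does not measure the influence of replicate 5.

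**Figure D5:**
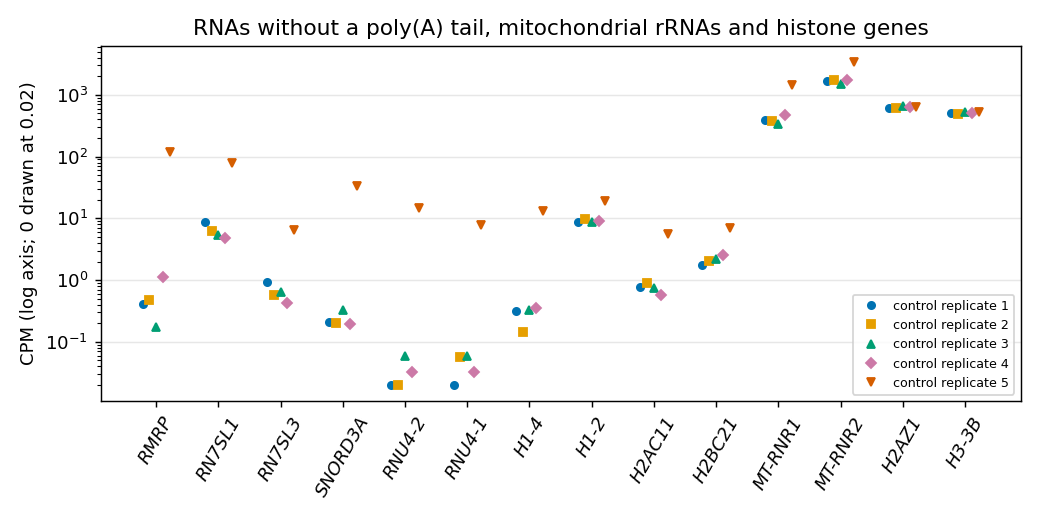
CPM (log axis, 0 drawn at 0.02) in each control replicate of RNAs without a poly(A) tail, replication-dependent histones (H1-4, H1-2, H2AC11, H2BC21), mitochondrial ribosomal RNAs and, at the right, histone variants with polyadenylated mRNAs (H2AZ1, H3-3B). The genes drawn were chosen after their values were seen. Replicate 5 lies clearly above the rest in the first 12 genes, and the libraries lie close together in the last 2. Some other replication-dependent histones, not drawn, differed less, such as H2BC12 at 22.1, 22.6, 21.3, 20.5 and 27.5 CPM in replicates 1 to 5. H3C6, also not drawn, was not highest in replicate 5.

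Genes that respond to stress or handling varied in other libraries. ATF3, an early gene of stress, had 24.7, 43.8, 21.5, 24.6 and 27.8 CPM in replicates 1 to 5 and was highest in replicate 2. BHLHE40, which responds to low oxygen and the circadian clock, had 18.5, 23.2, 19.5, 35.4 and 23.7 CPM and was highest in replicate 4. DDIT4, induced by stress and low oxygen and named here after its value was seen, had 80.6, 93.6, 68.4, 125 and 107 CPM and was also highest in replicate 4. As lists, the 13 hypoxia genes summed to 559, 616, 494, 650.2 and 613 CPM with 12 detected, and the 18 immediate early genes to 378, 473, 391, 425 and 451 CPM with 14 detected. DDIT4 is itself a member of the hypoxia list, and its highest by TPM, so that sum is not separate from the DDIT4 values. The 12 genes of the integrated stress response were all detected and summed to 973, 1088, 972, 993 and 1044 CPM. JUN was at 198 ± 23.8 TPM and MYC at 148 ± 6.96 TPM among the early genes. Of the heat shock genes, 10 of 11 were detected, and HSPA6, a chaperone nearly silent in unstressed cells, averaged 0.128 CPM. Its share of recurring stretches was 45.5%.

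The remaining genes among the 12 largest CVs differed in which library stood out. PCSK1N, a neuroendocrine precursor protein, had 10.5, 12.3, 22.4, 20.2 and 13.7 CPM and was higher in replicates 3 and 4. TMEM160 had 8.04, 8.46, 14.3, 12.4 and 8.63 CPM, with the same 2 libraries higher. PCLAF, which binds PCNA, had 19, 33, 38.4, 36.9 and 31.3 CPM and was low in replicate 1. KCNQ1OT1, a long antisense RNA of the imprinted KCNQ1 locus, had 11.9, 10.9, 7.08, 11.3 and 17.3 CPM, highest in replicate 5. STAG3L5P, a pseudogene, had 15.1, 10.4, 8.32, 7.91 and 11.1 CPM.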

How the data were processed

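Gene counts of the 5 control libraries were used as deposited by the authors, who aligned reads with STAR 2.7.11a to GRCh38 and counted them with featureCounts (Subread 2.0.3), per the submitters' processing notes. The notes also name edgeR 3.42.4. The annotation release, read length and strand setting are not given in the sources used here. The 22242203 to 34883809 reads per library make 1 CPM equal to 22.2 to 34.9 reads. Limits from counts of 0 cover counting error only.

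CPM were computed here with TMM scaling in edgeR 4.0.16 (R 4.3.3), and TPM with the union of exons in GENCODE 29. The CV is the SD over the mean of CPM. The edgeR estimate of spread used filterByExpr and was tested on simulated data. No groups were compared. DESeq2 1.42.0 size factors, other thresholds, other lengths and leaving out each library were the alternatives. Promoter windows came from RefSeq on GRCh38.p14.

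The members and lists were chosen with earlier results of these data known. Genes named were the 20 highest by TPM, the 10 highest by CPM and the 10 highest long non-coding RNAs by CPM. Also named were up to 8 highest detected and 6 defining members under the limit in each list, and the 12 largest and 8 smallest CVs of genes of at least 10 CPM. Not all of these are printed. Genes between the limits, histones, small RNAs, LDHB and the genes with sequences shown were named after their values were seen. Some genes are not reported here.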

Additional observations from a re-analysis of the deposited data

Results flagged for a closer look

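In each group of 5 values the gap between the most distant library and its nearest neighbour was set against the whole range, and a gap above 0.71 of the range marked a value. Of 305 values, 29 were marked, or 9.51%. Chance marks about 1 in 20 groups, but many of these values were chosen for their spread or for the pattern of replicate 5, so the share is not set against chance. Replicate 5 was the highest in 15 of them, and some of these are sums over members that were also marked singly.

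Replicate 5 stood apart at 118 CPM of RMRP, 79.8 CPM of RN7SL1, 33.9 CPM of SNORD3A and 14.8 CPM of RNU4-2. It did so at 1443 CPM of MT-RNR1 and 3397 CPM of MT-RNR2, which summed to 4840 CPM and made up 0.487% of its reads. Among histones it stood apart at 13.1 CPM of H1-4, 19.1 CPM of H1-2, 5.5 CPM of H2AC11 and 7.11 CPM of H2BC21. The 13 RNAs not known to carry a poly(A) tail summed to 262 CPM in it and the replication-dependent histones to 179 CPM. It was also the highest for PRAME, at 46.9 CPM, and the lowest for IGF2BP2, at 65.3 CPM, and P2RY1, at 27.9 CPM.

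Replicate 1 was set apart as the highest for B2M at 137 CPM, CCT5 at 566 CPM, GAS5 at 276 CPM, RPS27 at 492 CPM and ESR1 at 0.591 CPM. It was set apart as the lowest for GNAS at 943 CPM, GRIN2D at 5.29 CPM, RPS2 at 1868 CPM and TUBA1C at 97.4 CPM. ATF3 stood apart in replicate 2 at 43.8 CPM, HOXD13 in replicate 3 at 147 CPM and DCX in replicate 3 at 0.118 CPM. DCX and ESR1 rest on few reads.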

How the results depend on the processing

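The number of detected genes was 13924, and it was 15401 at 0.5 CPM, 12639 at 2 CPM, 16362 at 10 counts in all 5 libraries and 13806 with libraries thinned to the smallest total. Leaving out each library in turn gave 13956 to 14020 detected genes, 38210 to 38645 under the limit and 1848 to 1860 detected list members, beside 1845. The share of reads in the 100 highest genes fell from 15.6% to 14.1% without mitochondrial genes. The TPM share of the 100 highest genes was 27.1%, and 26.0% with the length of the longest transcript. With the median transcript length 9 of the 20 highest nuclear genes stayed among the 20, and 58 of 119 lists kept their highest member. With the longest transcript 14 of 20 and 99 of 119 did, so the order of genes by TPM depends on the length used. Leaving out each library gave a biological coefficient of variation of 0.0491 to 0.0663, lowest without replicate 1, and a median CV of 4.47 to 5.76%, lowest without replicate 1 and 4.77% without replicate 5. No paired analysis was possible because only 1 group was used and no groups were compared. Genes near 1 CPM rest on few reads, and genes with shared sequence or an overlapping gene on the other strand may be miscounted.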
